A study of Mus musculus with 12 samples.

Results

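The aminoacyl-tRNA synthetases are the enzymes that load each transfer RNA with its amino acid before protein synthesis. In this series 37 synthetase genes were present among 22471 measured features, and all 37 passed the low-count filter in every comparison. They were chosen by symbol alone: 20 encode cytosolic enzymes or enzymes shared between compartments, and 17, whose symbols end in 2, encode mitochondrial enzymes. Poly(A)-selected RNA from primary hepatocytes of young male C57BL/6J mice was sequenced in 12 libraries that fall into 4 groups of 3: untreated control cells, cells given oleic acid (OA, a fatty acid that fills hepatocytes with lipid droplets), cells given benzbromarone (BBR, a drug that lowers uric acid) and cells given both (BBR+OA). Each compound was used at a single dose and a single time, overnight, in cells taken from their liver into culture. The labels call the 3 libraries of a group biological replicates without naming the animal or well, so the p-values below measure the spread between these libraries.

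Most amino acids have one synthetase gene for the cytosol and a second for mitochondria, where a few proteins of the respiratory chain are made on separate ribosomes. A few genes serve both places: Gars and Kars each yield a cytosolic and a mitochondrial enzyme. Eprs is a fusion that charges glutamate and proline tRNAs, and Farsa and Farsb are the 2 subunits of a single phenylalanine enzyme. In mammalian cytosol 8 of the synthetase genes here (Dars, Eprs, Iars, Kars, Lars, Mars, Qars and Rars) encode parts of the multisynthetase complex, held together by the scaffold proteins Aimp1, Aimp2 and Eef1e1. Uncharged tRNA is sensed by the kinase GCN2, whose signal raises translation of the transcription factor ATF4. ATF4 in turn is known to bind a composite element, with the core TGATGNAA, in amino acid synthesis, transport and synthetase genes.

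Libraries held 15485508 to 23668379 estimated counts each, and the smallest count of any synthetase in any library was 56, for the mitochondrial proline enzyme Pars2. Hepatocyte markers summed to 42745 to 43739 CPM (estimated counts scaled to the library total) in control and 42533 to 44030 CPM with BBR. They were higher with OA (46476 to 48391 CPM) and with BBR+OA (48494 to 50471 CPM). Over all 12 libraries, 10 Kupffer cell markers summed to 102 to 184 CPM. The sum was 56.9 to 75.7 CPM for 8 endothelial markers and 23.1 to 30.2 CPM for 8 stellate cell markers. In OA against control 6 of 10 hepatocyte marker entries were called higher and 2 lower. Of the 10 Kupffer cell markers 2 were higher and 6 lower (median log2 -0.53), against 21.3% and 21.5% of all genes. The 5 cholangiocyte markers summed to 590 to 722 CPM in control, 242 to 272 CPM with OA, 391 to 422 CPM with BBR and 199 to 240 CPM with BBR+OA. Of these, Krt7 was at or below 3 counts in every library. Krt19, Epcam and Sox9 were detected, with control means of 6.91, 1.86 and 32.3 CPM. In bulk RNA, fewer cells of a type and less RNA per cell cannot be told apart. That sum followed Spp1, at 613 ± 64.1 CPM in control and 204 ± 18.1 CPM with OA (SD, n = 3), while over the 4 markers tested 1 was higher and 1 lower with OA (median log2 0.0019) and 3 were higher and 1 lower with BBR. The part of these markers in the results below was not tested.

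Promoter sequence was searched for the ATF4 core after the expression values below were seen, and its part in them was not tested. RefSeq promoters of 300 bases (250 before and 50 after the start site, GRCm38.p6) were matched for 27 of the 37 genes, and the letters TGATGNAA were searched on both strands. The core was found in 5 of 13 cytosolic or shared genes (38.5%) and in 0 of 14 mitochondrial genes, against 1304 of 32851 promoters in the whole reference table (3.97%). Among the ATF4-dependent genes listed further on, 8 of 23 promoters (34.8%) held it. The stretches below, 30 bases each, show a match in each of the 5 synthetase genes. Each is written on the strand that reads TGATGNAA, with the 8 matching bases in capitals.
Aars: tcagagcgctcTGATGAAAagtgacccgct
Gars: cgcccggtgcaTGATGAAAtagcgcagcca
Iars: gcgtctggaggTGATGCAAtactgacagtg
Tars: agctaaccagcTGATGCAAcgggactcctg
Yars: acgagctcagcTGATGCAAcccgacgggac

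The Aars stretch lies at chr8:111033840-111033869 (minus strand), with the core starting at base 10 of the transcript from the RefSeq start site, and GENCODE release 21 places it in a UTR exon of an Aars transcript. The Gars stretch is chr6:55037960-55037989 (minus strand), with the core starting 30 bases before the start site and outside any annotated Gars exon. The Iars stretch, chr13:49682126-49682155 (minus strand), lies in a UTR. Tars, at chr15:11399655-11399684 (plus strand), has 11 of the 30 bases in a UTR, with the core in front of them. In Yars, at chr4:129189895-129189924 (plus strand), the stretch runs over 13 UTR and 17 coding bases. These matches describe letters and no binding was measured. Vars, Cars, Hars, Wars, Rars, Nars, Lars, Pars2 and Hars2 had no entry.

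Transcript levels of the cytosolic and mitochondrial enzymes lay far apart in untreated hepatocytes. Compared per length, as FPKM in control libraries, the cytosolic or shared genes ran from 15.1 (Yars) to 159 (Sars) with a median of 54, and the mitochondrial genes from 0.583 (Mars2) to 30.3 (Iars2) with a median of 6.1. The serine enzyme Sars (159 ± 8.77 FPKM, SD, n = 3) stood first, followed by the asparagine enzyme Nars (143 ± 1.74 FPKM) and the glycine enzyme Gars (101 ± 2.57 FPKM). These 3 did not overlap in any control library. Kars, Dars and Qars, the lysine, aspartate and glutamine enzymes of the multisynthetase complex, came close together at 71.3 ± 4.32, 68.5 ± 1.49 and 67.9 ± 7.24 FPKM, and their library values overlapped. In the order of all 37 genes, 16 of the neighbouring pairs overlapped in this way.

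**Figure D1:**
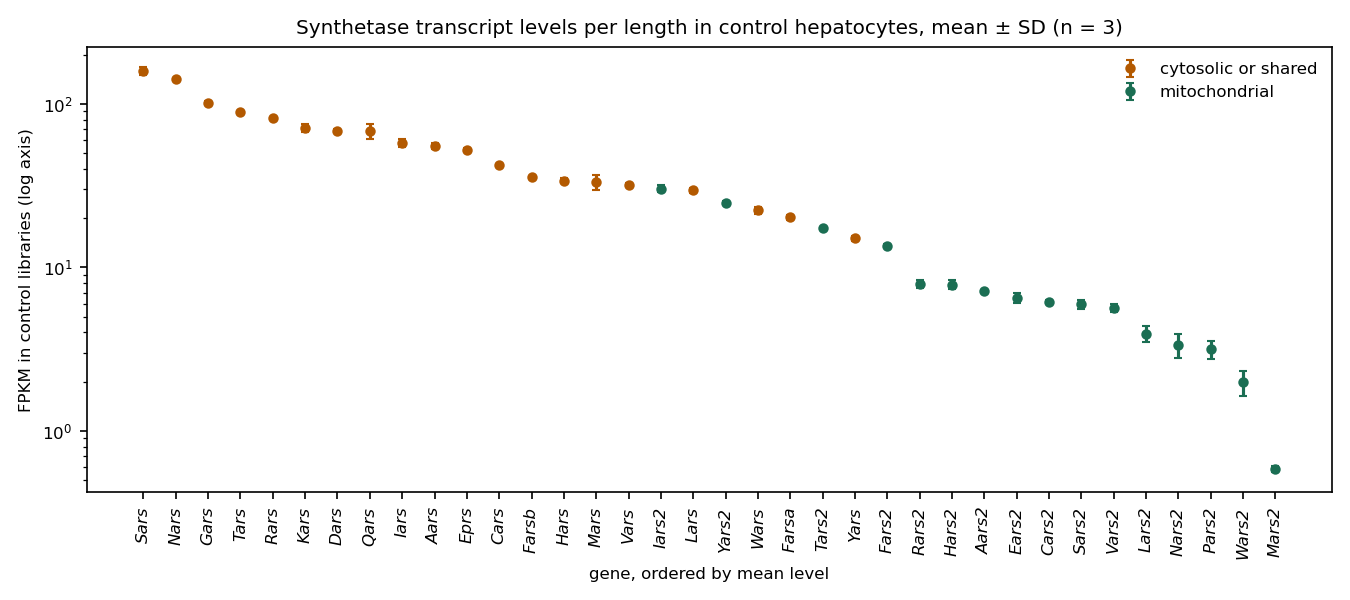
FPKM of each synthetase gene in the 3 control libraries (points, mean; bars, SD; log axis), for 36 of the 37 genes, ordered by mean level and coloured by compartment. Cytosolic or shared genes fill the upper ranks from Sars at 159 down, while the mitochondrial genes, apart from Iars2, Yars2, Tars2 and Fars2, sit below 10 FPKM.

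When each cytosolic gene was set against its mitochondrial counterpart (18 pairs, with Eprs paired to both Ears2 and Pars2, and Fars2 to both Farsa and Farsb), the cytosolic FPKM was the higher in all 12 libraries in 17 pairs. The tyrosine enzymes were the exception: the Yars level was 0.529 to 0.712 times that of Yars2 over the 12 libraries. The widest ratios were those of the asparagine pair, with Nars at 38.2 to 68.2 times Nars2, and of the methionine pair, with Mars at 36.5 to 61.4 times Mars2. In control the mean ratio was 56.9 for methionine and 43.7 for asparagine.

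OA alone raised the cytosolic synthetases nearly as a group. In OA against control cells 17 of the 20 cytosolic or shared genes rose, 0 fell and 3 (Dars, Kars and Qars) were not called by edgeR's quasi-likelihood test at an adjusted p under 0.05. Over all genes tested, 21.3% were called higher and 21.5% lower in this comparison. For the cytosolic genes 0 were lower at an unadjusted p under 0.05 or by DESeq2 either. The median log2 fold change was 0.42 over the 20 genes and -0.006 over all 12418 genes tested. For the mitochondrial genes it was -0.039, with 2 higher (Mars2, Yars2), 3 lower (Fars2 and Hars2 among them) and 12 not called. Summed over the 20 cytosolic genes, CPM was 3145 to 3193 in control and 4233 to 4324 with OA (34.8% more), and over the 17 mitochondrial genes 406 to 409 and 408 to 413 (0.906% more).

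**Figure D2:**
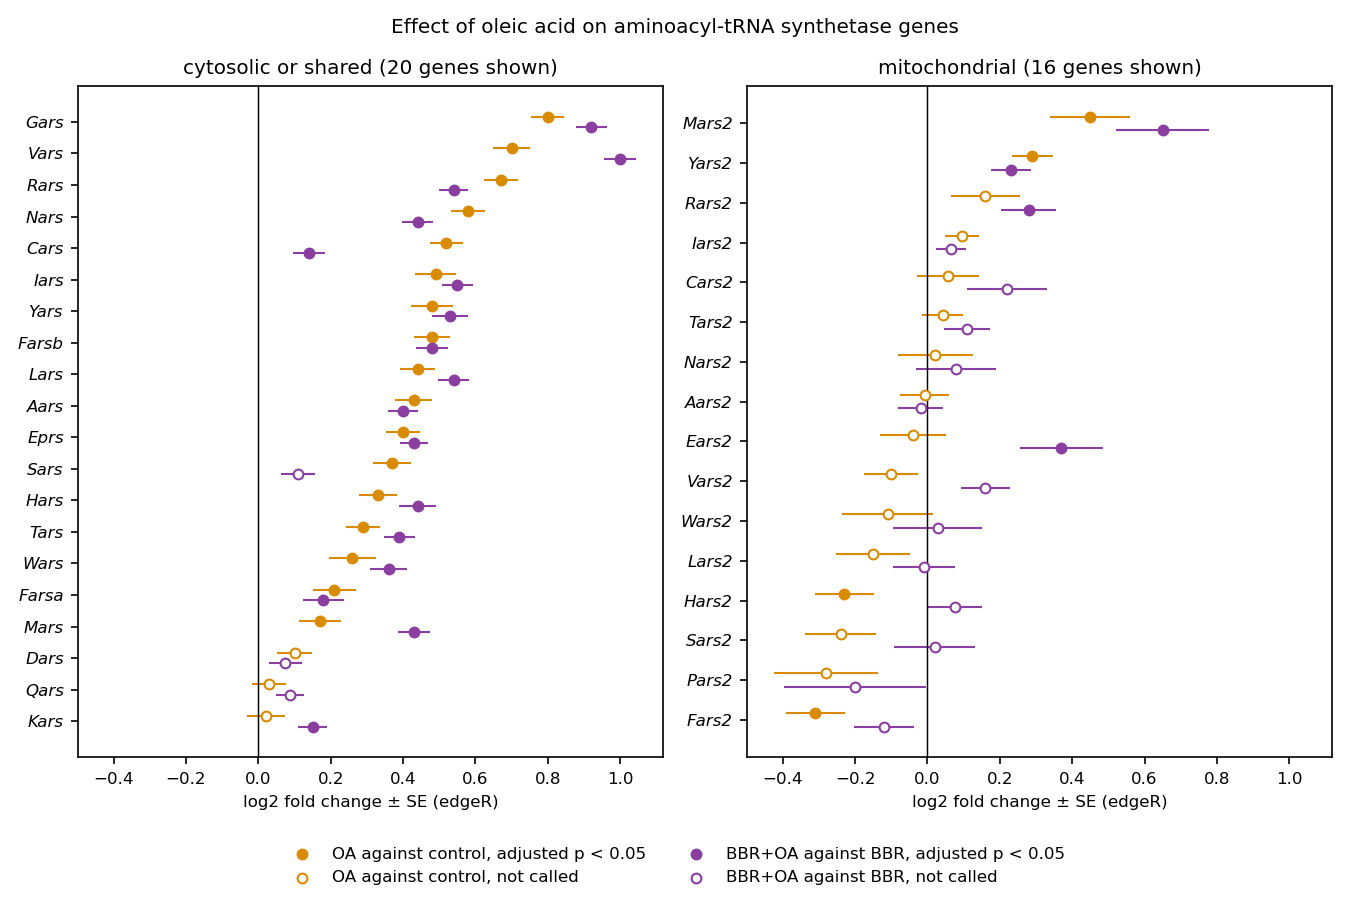
log2 fold change with SE (edgeR) for each synthetase gene, in OA against control (orange) and BBR+OA against BBR (purple), with filled points for adjusted p under 0.05; cytosolic or shared genes at left, 16 of the mitochondrial genes at right. All 20 cytosolic points lie to the right of 0 in both comparisons, from 0.02 to 0.80 in the first, whereas the mitochondrial points lie on both sides, from -0.31 to 0.45.

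The glycine enzyme Gars (chr6:55038007-55079500, plus strand), a shared gene with the core in its promoter, had the smallest adjusted p of the 37. Its CPM was 243, 235 and 236 in the control libraries and 416, 409 and 413 with OA. With BBR it was 204, 218 and 218, and with BBR+OA 392, 409 and 410. Every OA-treated library lay above every library without OA. The rise was 1.74-fold without BBR (log2 0.80 ± 0.046 SE, adjusted p = 1.24e-08) and 1.89-fold with it (log2 0.92 ± 0.043 SE, adjusted p = 1.91e-09).

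The valine enzyme Vars (chr17:35000987-35016322, plus strand), which is known to bind elongation factor 1, had 116, 106 and 106 CPM in control, 173, 177 and 178 with OA, 83, 82.6 and 87.6 with BBR and 175, 163 and 170 with BBR+OA. Its lowest libraries were those with BBR alone, none of which overlapped the controls, and both OA groups stood above all others. The log2 fold change for OA was 0.70 ± 0.0506 (SE, adjusted p = 1.08e-07) in cells without BBR and 1.0 ± 0.0447 (SE, adjusted p = 1.23e-09), or 2.01-fold, in cells with it.

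The arginine enzyme Rars (chr11:35808381-35834506, minus strand), a member of the multisynthetase complex, rose from 168, 171 and 176 CPM in control to 271, 266 and 277 with OA. In BBR it stood at 167, 172 and 176 CPM and in BBR+OA at 248, 253 and 244. Control and BBR libraries were alike in range and both OA groups lay apart from them. The 2 OA effects were log2 0.67 ± 0.047 (SE, adjusted p = 7.72e-08) and 0.54 ± 0.0405 (SE, adjusted p = 1.71e-07).

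Nars, the asparagine enzyme, was counted at 371, 375 and 370 CPM in control, 558, 539 and 557 with OA, 360, 387 and 365 with BBR and 503, 515 and 486 with BBR+OA. Its BBR+OA libraries were all below its OA libraries and all above those without OA. OA raised it by log2 0.58 ± 0.0467 (SE, adjusted p = 3.06e-07) without BBR and 0.44 ± 0.0434 (SE, adjusted p = 2.37e-06) with BBR. The difference between the OA and control means, 180 CPM for Nars and 175 CPM for Gars, made up 16.3% and 15.8% of the summed cytosolic difference of 1104 CPM.

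The cysteine enzyme Cars (chr7:143557230-143600090, minus strand) took another course. It had 109, 109 and 107 CPM in control, 158, 157 and 150 with OA, 121, 128 and 122 with BBR and 138, 141 and 130 with BBR+OA. The 4 groups did not overlap, with control lowest, then BBR, then BBR+OA, then OA. OA raised it by log2 0.52 ± 0.0466 (SE, adjusted p = 7.95e-07) in cells without BBR and by 0.14 ± 0.0448 (SE, adjusted p = 0.0233) in cells with BBR, a call that was lost with upper quartile scaling (adjusted p = 0.0993) and without BBR replicate 1 or 3 or BBR+OA replicate 1 or 2.

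**Figure D3:**
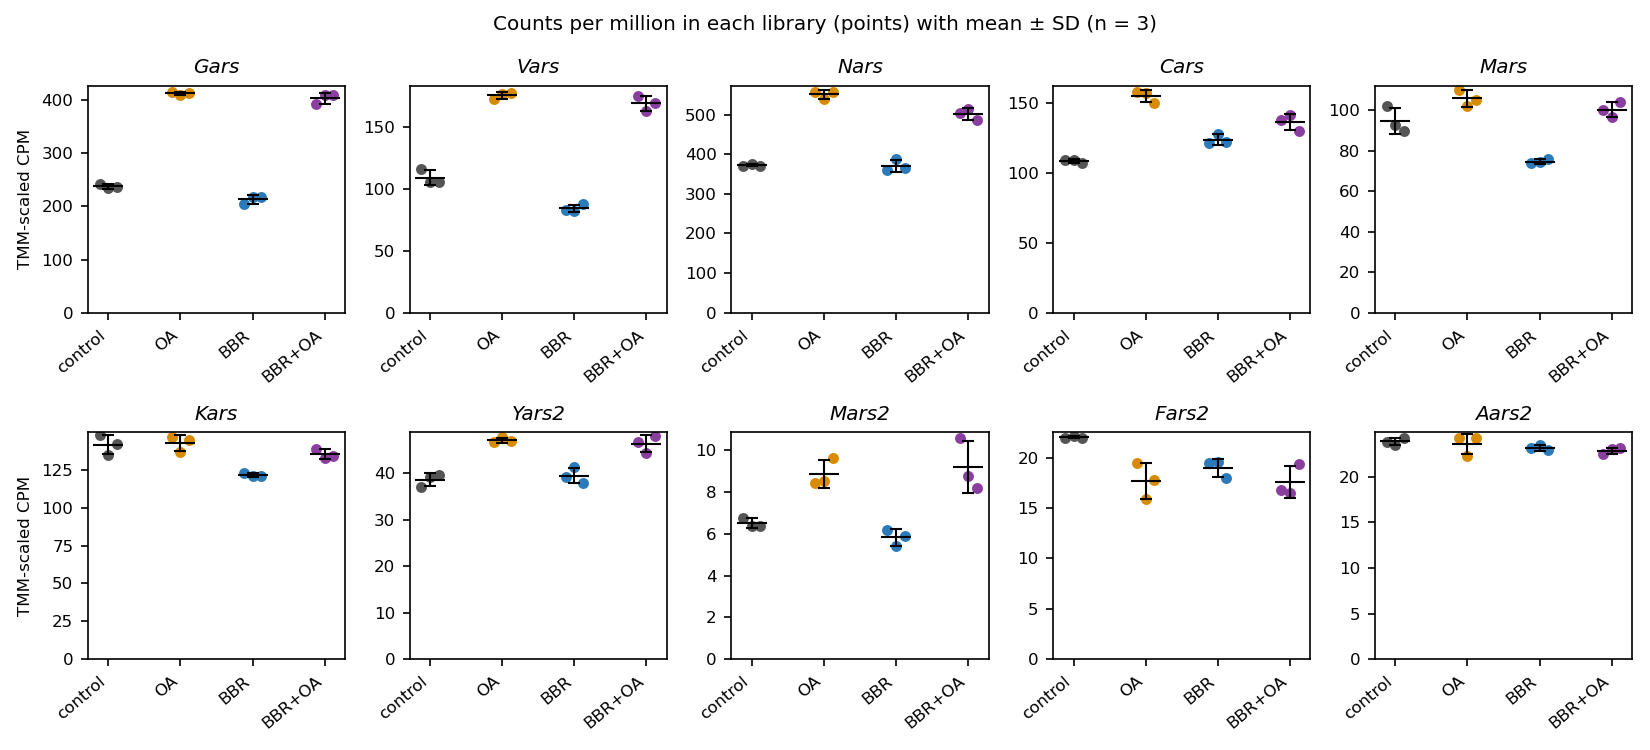
TMM-scaled CPM of 10 synthetase genes in each library (points) with the mean and SD of each group (n = 3); axes start at 0. Gars, Vars and Nars stand higher in both OA groups than in the groups without OA, Kars and Aars2 hold nearly level between control and OA, and Mars2 is the scarcest at 5.41 to 10.6 CPM.

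The other cytosolic genes that rose with OA did so by log2 0.17 (Mars, methionine) to 0.49 (Iars, isoleucine). Between them stood Farsa (0.21), Wars (0.26), Tars (0.29), Hars (0.33), Sars (0.37), Eprs (0.40), Aars (0.43), Lars (0.44), Farsb (0.48) and Yars (0.48). Farsb and Farsa, whose products pair one to one, gave log2 0.48 ± 0.0493 and 0.21 ± 0.0586 (SE, n = 3 libraries a group), and the difference between these genes was not tested. All 12 cytosolic genes outside the multisynthetase complex rose, as did 5 of the 8 in it (Eprs, Iars, Lars, Mars and Rars), while the complex also held all 3 genes that were not called. Of its scaffolds, Eef1e1 (log2 0.61 ± 0.0563 SE, adjusted p = 1.07e-06) and Aimp2 (0.42 ± 0.0569 SE, adjusted p = 3.9e-05) rose, and Aimp1 had a log2 fold change of 0.10 (adjusted p = 0.139).

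Kars, the lysine enzyme, had the largest adjusted p among the cytosolic or shared genes. Its CPM was 148, 135 and 142 in control and 147, 137 and 145 with OA, 2 groups that overlapped (log2 0.021 ± 0.0523 SE, adjusted p = 0.77). With BBR it was 123, 121 and 121, below every other library, and with BBR+OA 139, 133 and 134. The glutamine enzyme Qars gave log2 0.03 ± 0.0474 (SE, adjusted p = 0.645) and the aspartate enzyme Dars 0.10 ± 0.0474 (SE, adjusted p = 0.0963) in OA against control. A p above the threshold does not show that these levels were equal.

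Mars requires care. On chr10:127296221-127311786 its exons share sequence with Ddit3, the gene of the stress factor CHOP on the opposite strand, and how strand was treated in counting is not given in the sources used here, so reads from the shared stretch cannot be told apart. Ddit3, named here for this overlap after its values were seen, was counted at 12.3 ± 1.13 CPM in control and 21.6 ± 1.02 CPM with OA (SD, n = 3; log2 0.83, adjusted p = 3.29e-06). Mars itself had 102, 92.4 and 89.7 CPM in control and 110, 102 and 105 with OA, groups that touched at 102. Its call in this comparison (log2 0.17 ± 0.0583 SE, adjusted p = 0.0326) was lost with upper quartile scaling (adjusted p = 0.109) and when control replicate 2, control replicate 3 or OA replicate 1 was left out.

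The mitochondrial enzymes had no common direction. Yars2, which charges mitochondrial tyrosine tRNA, had the smallest adjusted p among them, with 36.9, 39.2 and 39.6 CPM in control, 46.7, 47.7 and 46.8 with OA, 39.2, 41.3 and 37.9 with BBR and 46.6, 44.4 and 48 with BBR+OA. Its OA-treated libraries all lay above those without OA. OA raised Yars2 by log2 0.29 ± 0.056 (SE, adjusted p = 0.000713) without BBR and 0.23 ± 0.0556 (SE, adjusted p = 0.00448) with BBR.

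Mars2, the mitochondrial methionine enzyme and the scarcest transcript of the 37 per length, was at 6.78, 6.4 and 6.4 CPM in control, 8.43, 8.55 and 9.65 with OA, 6.21, 5.41 and 5.92 with BBR and 10.6, 8.77 and 8.22 with BBR+OA. It too was higher in every OA-treated library than in any other, by log2 0.45 ± 0.11 (SE, adjusted p = 0.00405) and 0.65 ± 0.128 (SE, adjusted p = 0.00111) in the comparisons without and with BBR. Methionine was the only one of the 18 pairs in which the mitochondrial gene had the larger log2 fold change in OA against control, 0.45 for Mars2 against 0.17 for Mars, a difference that was not tested.

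Fars2, the mitochondrial phenylalanine enzyme, moved the other way. It had 22, 22.2 and 22 CPM in control, 19.5, 15.9 and 17.8 with OA, 19.5, 19.6 and 18 with BBR and 16.8, 16.5 and 19.4 with BBR+OA, so every treated library was below every control library. The log2 fold change with OA was -0.31 ± 0.0814 (SE, adjusted p = 0.0071). Exons of Fars2 overlap those of Nrn1 and Lyrm4 on the opposite strand, which had log2 fold changes of 0.084 and 0.13 and were not called. Hars2 (log2 -0.23 ± 0.0812 SE, adjusted p = 0.0368) fell as well by edgeR, but not by DESeq2 (adjusted p = 0.0861), and its call was lost when control replicate 1 or 3 or any OA library was left out. Hars2 and the cytosolic Hars lie head to head with overlapping first exons and had fractional counts, so both calls (Hars rose by log2 0.33) are uncertain. The part of the shared stretch was not tested. Aars2, the alanine enzyme, had the largest adjusted p of the kind, with 23.8, 23.5 and 24.3 CPM in control, 24.3, 22.3 and 24.2 with OA, 23.1, 23.5 and 22.9 with BBR and 22.5, 23 and 23.1 with BBR+OA (log2 -0.008 ± 0.0683 SE in OA against control, adjusted p = 0.936). Cars2, Ears2, Iars2, Lars2, Nars2, Pars2, Rars2, Sars2, Tars2, Vars2 and Wars2 were not called.

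The effect of OA in the presence of BBR was measured in the other 6 libraries. Of the 20 cytosolic or shared genes 17 rose and 0 fell in BBR+OA against BBR, with a background of 20.1% of all genes higher and 18.8% lower and a median log2 fold change of 0.43 against -0.0061 over all genes. The sum over these genes went from 2973 to 3072 CPM in BBR to 4030 to 4144 CPM in BBR+OA, 34.6% more. In both OA comparisons, which share no library, 16 cytosolic genes were called higher. Sars was called higher in the first alone and Kars (log2 0.15 ± 0.0407 SE, adjusted p = 0.0095) in the second alone, while Dars and Qars were called in neither. Sars, the serine enzyme, gave log2 0.11 ± 0.0475 (SE, adjusted p = 0.0866) here, against 0.37 ± 0.0521 (SE, adjusted p = 6.25e-05) without BBR. The largest changes were those of Vars (1.0) and Gars (0.92), followed by Iars (0.55), Lars (0.54), Rars (0.54) and Yars (0.53). Farsa (0.18, adjusted p = 0.0209) was not called by DESeq2 (adjusted p = 0.0697), with upper quartile scaling (adjusted p = 0.0664), or without BBR replicate 2 or BBR+OA replicate 2.

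Among the mitochondrial genes 4 rose in BBR+OA against BBR (Ears2, Mars2, Rars2 and Yars2), or 23.5% against 20.1% of all genes. Of the 17 genes 0 fell, against 18.8% of all genes, and the median was 0.077. At an unadjusted p under 0.05 or by DESeq2, 0 genes of either kind were lower. Rars2, the arginine enzyme, gave log2 0.28 ± 0.0762 (SE, adjusted p = 0.00983). Ears2, which charges both glutamate and, ahead of the amidotransferase, glutamine tRNAs of mitochondria, gave 0.37 ± 0.115 (SE, adjusted p = 0.0203), a call that was lost without BBR replicate 1 or 3 or BBR+OA replicate 2 or 3. The cytosolic log2 fold change exceeded the mitochondrial one in 16 of the 18 pairs (17 in OA against control), the exceptions being Cars with Cars2 and Mars with Mars2.

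With BBR alone, 11 of the 37 synthetase genes fell, 1 rose and the others were not called. In BBR against control, a comparison that shares the control libraries with OA against control, 8 cytosolic or shared genes fell (Gars, Hars, Kars, Lars, Mars, Tars, Vars and Wars), Cars rose and 11 were not called. Across all genes tested, 13.2% were called higher and 14.5% lower. The median log2 fold change of the 20 genes was -0.045 and that of all genes -0.00085. The summed CPM of the cytosolic genes was 2973 to 3072 with BBR, a difference of -4.32% from the control mean, and that of the mitochondrial genes 384 to 386 against 406 to 409, a difference of -5.42%. Of other cell types, 1 of 10 Kupffer cell markers was higher and 1 lower in this comparison, with Cd68 going from 80.1 ± 11.6 to 131 ± 22.7 CPM (SD, n = 3), and 3 of 8 endothelial markers were higher (median log2 0.33). Their part in the BBR results was not tested.

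**Figure D4:**
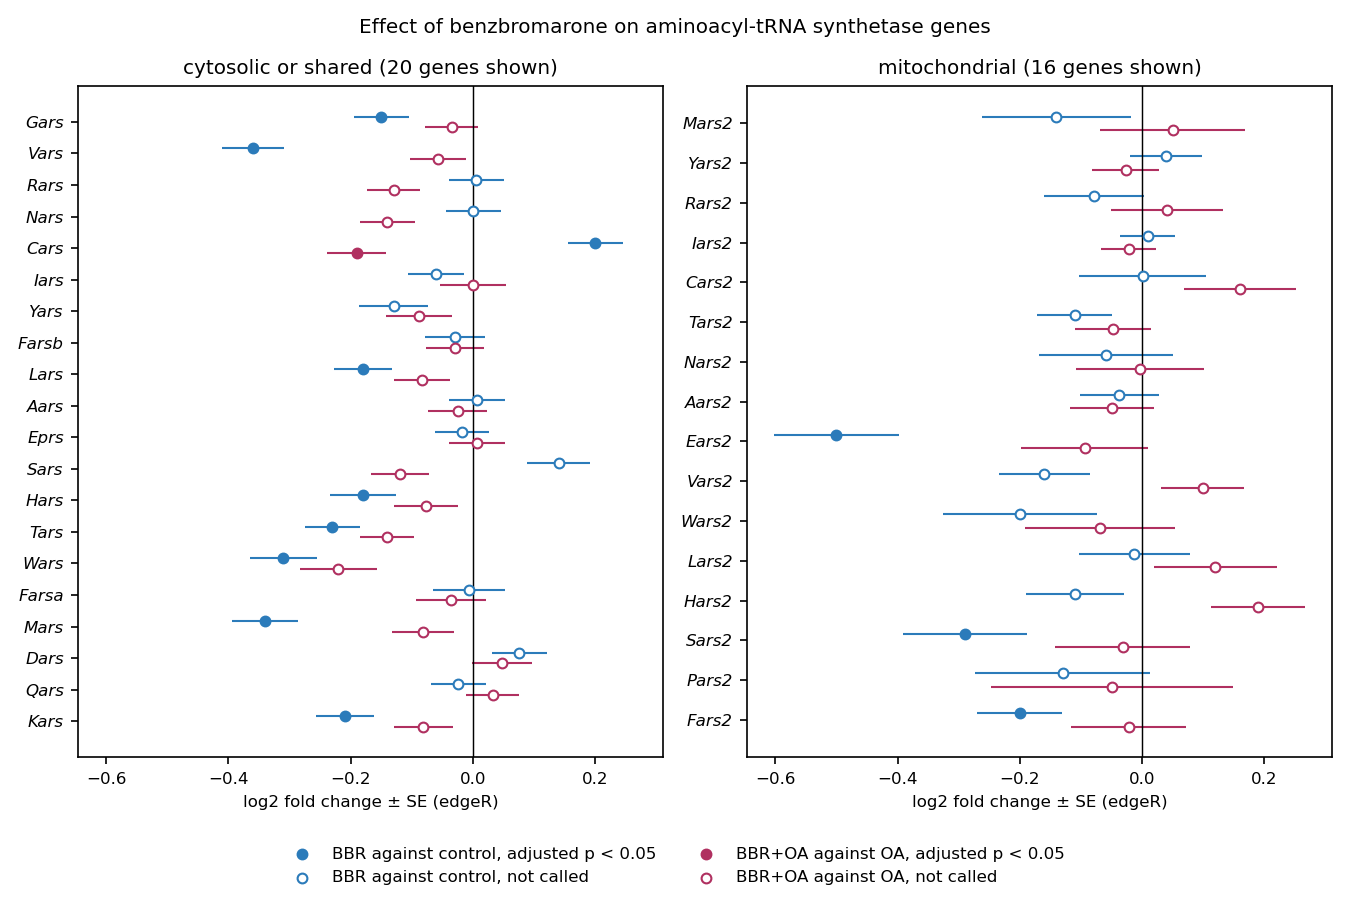
log2 fold change with SE (edgeR) for each synthetase gene, in BBR against control (blue) and BBR+OA against OA (red), with filled points for adjusted p under 0.05, for the genes and in the order of the OA plot. Without OA, 9 cytosolic and 3 mitochondrial points are filled, between -0.50 (Ears2) and 0.20 (Cars); with OA only Cars is, at -0.19.

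Vars went down to 0.777 of the control level (log2 -0.36 ± 0.0505 SE, adjusted p = 5.03e-05) and Mars to 0.79 (log2 -0.34 ± 0.0539 SE, adjusted p = 0.000187). The CPM of Mars was 73.6, 74.3 and 75.7 with BBR and 100, 96.4 and 104 with BBR+OA, so that its BBR libraries were the lowest of the 12. Ddit3, which shares exon sequence with Mars, rose in the same comparison (log2 0.49, adjusted p = 0.00049).

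The tryptophan enzyme Wars, also known as an interferon-induced gene, had 54.5, 52.3 and 50.5 CPM in control, 68.6, 58.8 and 60.4 with OA, 42.9, 41.4 and 41.7 with BBR and 55.4, 52.2 and 54.2 with BBR+OA. All BBR libraries lay under all others, and the BBR+OA libraries were within or just above the control range. Wars fell by 0.31 (log2, SE 0.0541, adjusted p = 0.000414) with BBR.

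The threonine enzyme Tars had 230, 225 and 239 CPM in control, 282, 281 and 278 with OA, 198, 189 and 200 with BBR and 261, 258 and 247 with BBR+OA. Its groups did not overlap, with BBR lowest and OA highest. BBR lowered it by 0.23 (log2, SE 0.0455, adjusted p = 0.0011), and its mean difference of -35.6 CPM was the largest among the cytosolic genes. Cars was the one cytosolic gene that rose with BBR (log2 0.20 ± 0.0446 SE, adjusted p = 0.0033). The remaining calls were Kars (log2 -0.21), Lars (-0.18), Hars (-0.18) and Gars (-0.15). The Lars call was lost without BBR replicate 1, that of Hars without control replicate 1, BBR replicate 2 or BBR replicate 3, and that of Gars without control replicate 1 or BBR replicate 1.

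Of the 17 mitochondrial synthetases 3 fell with BBR alone by edgeR (17.6%, against 14.5% of all genes), 5 were lower at an unadjusted p under 0.05 and DESeq2 called 1 lower. By each of these counts 0 were higher. Ears2 had 12.9, 12.2 and 14.2 CPM in control, 12.9, 13.4 and 11.9 with OA, 8.7, 10.4 and 8.77 with BBR and 10.3, 12.9 and 12.7 with BBR+OA, and its BBR and control libraries did not overlap. Its log2 fold change was -0.50 ± 0.102 (SE, adjusted p = 0.00146), a result that stood without any single library. Its exons overlap those of Ubfd1 on the opposite strand, which had a log2 fold change of -0.037 (adjusted p = 0.635). Sars2 (log2 -0.29 ± 0.101 SE, adjusted p = 0.0404) and Fars2 (-0.20 ± 0.0698 SE, adjusted p = 0.0382) were not called by DESeq2 (adjusted p = 0.121 and 0.131). The Fars2 call was lost whichever of the 6 libraries was left out, and that of Sars2 without control replicate 1 or 3 or BBR replicate 1 or 2.

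In cells given OA, few synthetase genes were called for BBR by the main test, but most cytosolic ones had a log2 fold change below 0. Against OA alone, BBR+OA cells had 0 synthetases higher and 1 lower by that test, with backgrounds of 1.95% higher and 2.63% lower over all genes. With a replicate block 6 of the 20 cytosolic genes were called lower, beside 755 of all 12278 genes (323 without it). At an unadjusted p under 0.05, edgeR gave 6 cytosolic genes lower and 1 mitochondrial gene higher, and DESeq2 called 1 gene, also cytosolic and lower. The gene called by edgeR was Cars, at -0.19 ± 0.0485 (log2, SE, edgeR adjusted p = 0.0426). That call was lost when OA replicate 1, OA replicate 2 or any BBR+OA library was left out. The median log2 fold change was -0.079 for the cytosolic and -0.022 for the mitochondrial genes, and 3 of the 20 cytosolic genes were above 0. The cytosolic sum differed by -4.51% from that of OA cells, against -4.32% for BBR without OA. For 7 of the 20 cytosolic genes every BBR+OA library lay below every OA library, against 11.8% of all genes. For 1 every BBR+OA library lay above, against 12% of all genes. Vars and Mars, which had fallen with BBR alone, gave -0.057 (adjusted p = 0.549) and -0.082 (adjusted p = 0.421).

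The interaction term tests whether the BBR effect with OA differs from that without. It was called for 4 cytosolic or shared genes and for 0 mitochondrial genes, with 6.87% of all genes called positive and 5.31% negative. For the mitochondrial genes DESeq2 also gave 0, and 3 were positive at an unadjusted p under 0.05 by edgeR. Vars (0.32 ± 0.0659 SE, adjusted p = 0.00366) and Mars (0.27 ± 0.0745 SE, adjusted p = 0.0238) were positive: the BBR effect was -0.36 and -0.34 without OA and -0.057 and -0.082 with it, which is the same as a larger log2 fold change for OA in the presence of BBR. Cars (-0.37 ± 0.0621 SE, adjusted p = 0.000586) and Sars (-0.25 ± 0.0717 SE, adjusted p = 0.0287) were negative. Sars, which the naming rule did not pick and which is given for this call, had 238, 246 and 258 CPM in control, 301, 322 and 328 with OA, 251, 279 and 281 with BBR and 285, 297 and 293 with BBR+OA. Its BBR+OA libraries were all below its OA libraries and above its BBR libraries. The Mars and Sars calls depended on single libraries: that of Mars was lost without control 1, OA 2, BBR 2, BBR+OA 1 or BBR+OA 3, and that of Sars without control 1, control 2, OA 2, OA 3, BBR 2 or BBR 3.

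The wider pathway was read from gene lists. A list of 26 genes held Atf4 and genes known to depend on ATF4, without synthetases. Of these, 22 rose and 0 fell in OA against control (median log2 0.77), against 21.3% and 21.5% of all genes. In BBR+OA against BBR 20 rose and 2 fell (median 0.51), against 20.1% and 18.8% of all genes. In BBR against control 6 rose and 2 fell (median 0.096), against 13.2% and 14.5%. In BBR+OA against OA 1 rose and 1 fell, against 1.95% and 2.63%. Cth, which makes cysteine from cystathionine, had a mean of 42.6 ± 0.337 CPM in control and 112 ± 8.29 CPM in OA cells (SD, n = 3; log2 1.40, adjusted p = 5.84e-10). Asns, the asparagine synthesis enzyme, went from 67.4 ± 1.82 to 137 ± 4.8 CPM (log2 1.03, adjusted p = 2.78e-09), and Psat1 of serine synthesis went from 78.9 ± 4.95 to 184 ± 19.5 CPM (log2 1.23, adjusted p = 1.32e-08). Atf4, 1 of the 22 and named outside the rule, rose from 227 ± 3.69 to 343 ± 1.22 CPM (log2 0.60, adjusted p = 1.49e-07). With BBR alone Asns stood at 68.6 ± 1.54 CPM and Psat1 at 76.3 ± 2.9 CPM. Other genes of the list moved: log2 fold changes in BBR against control ran from -0.32 to 1.20, and Ddit3 was 1 of the 6 that rose (0.49, adjusted p = 0.00049).

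A list of 8 genes held eIF2 kinases, kinase regulators and phosphatase subunits, which act between amino acid shortage or stress and ATF4. With OA 2 rose, the phosphatase subunits Ppp1r15b (log2 0.43, adjusted p = 3.01e-05) and Ppp1r15a (0.40, adjusted p = 0.000209), against 21.3% of all genes. In BBR+OA against BBR 1 rose and 3 fell, against 20.1% and 18.8% of all genes. Ppp1r15b gave 0.36 (adjusted p = 3.62e-05), Ppp1r15a 0.038 (adjusted p = 0.686) and Impact -0.45 (adjusted p = 0.000179). The kinase genes Eif2ak4 and Eif2ak3 gave -0.31 (adjusted p = 0.00164) and -0.30 (adjusted p = 0.00132). In BBR against control 4 of the 8 rose (50%, against 13.2% of all genes), with Impact, an inhibitor of GCN2 activation, at log2 0.63 (adjusted p = 3.64e-06). The means of Eif2ak4 and Eif2ak3 were 31.1 ± 1.44 and 33.4 ± 3.87 CPM in control (SD, n = 3). With BBR they were 36.8 ± 0.367 and 43.5 ± 2.78 CPM.

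Calls in the rest of the translation apparatus differed between its lists. Of 84 entries tested under cytosolic ribosomal protein symbols 5 rose (5.95%) and 1 fell (1.19%) with OA, against 21.3% and 21.5% of all genes (median log2 0.071). The 5 included the ribosomal protein-like gene Rpl7l1. The entry that fell was a scarce second one for Rpsa (2.26 CPM in control), and the main Rpsa entry (1969 CPM) was not called (adjusted p = 0.737). Of 78 mitochondrial ribosomal protein genes 15 rose (19.2%, against 21.3% of all genes) and 1 fell (median 0.059). Among 5 cytosolic elongation factor genes 0 rose, while Eef1a1 (log2 -0.18, adjusted p = 0.0215) and Eef2 (-0.17, adjusted p = 0.0147) fell (40%, against 21.5% of all genes). Of 4 mitochondrial elongation factors 0 were called. In BBR+OA against BBR 20 of the 78 mitochondrial ribosomal genes rose (25.6%, against 20.1% of all genes) and 1 fell. There 2 of the 4 mitochondrial elongation factors rose (50%, against 20.1% of all genes), and 2 of the 5 cytosolic ones fell (40%, against 18.8%). With BBR alone Tufm (log2 -0.19, adjusted p = 0.00516) and Tsfm (-0.22, adjusted p = 0.0374), 2 of the 4 mitochondrial elongation factors, fell (50%, against 14.5% of all genes). So did 9 of the 78 mitochondrial ribosomal genes (11.5%, against the same 14.5%), with 2 higher.

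Genes that handle tRNA charging without being synthetases by symbol were mixed. Of the 4 mitochondrial charging partners, Gatb, a subunit of the amidotransferase that converts glutamate to glutamine on its tRNA, fell with OA (log2 -0.26 ± 0.0794 SE, adjusted p = 0.0151), and Gatc, Mtfmt and Qrsl1 were not called. That is 25% lower, against 21.5% of all genes. Of 7 synthetase-like or proofreading genes, the proline-tRNA editing gene Prorsd1 rose (log2 0.36, adjusted p = 0.00442) and the D-aminoacyl-tRNA deacylases Dtd1 (-0.46, adjusted p = 0.0105) and Dtd2 (-0.24, adjusted p = 0.0453) fell. These shares, 14.3% higher and 28.6% lower, stood beside 21.3% and 21.5% of all genes.

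**Figure D5:**
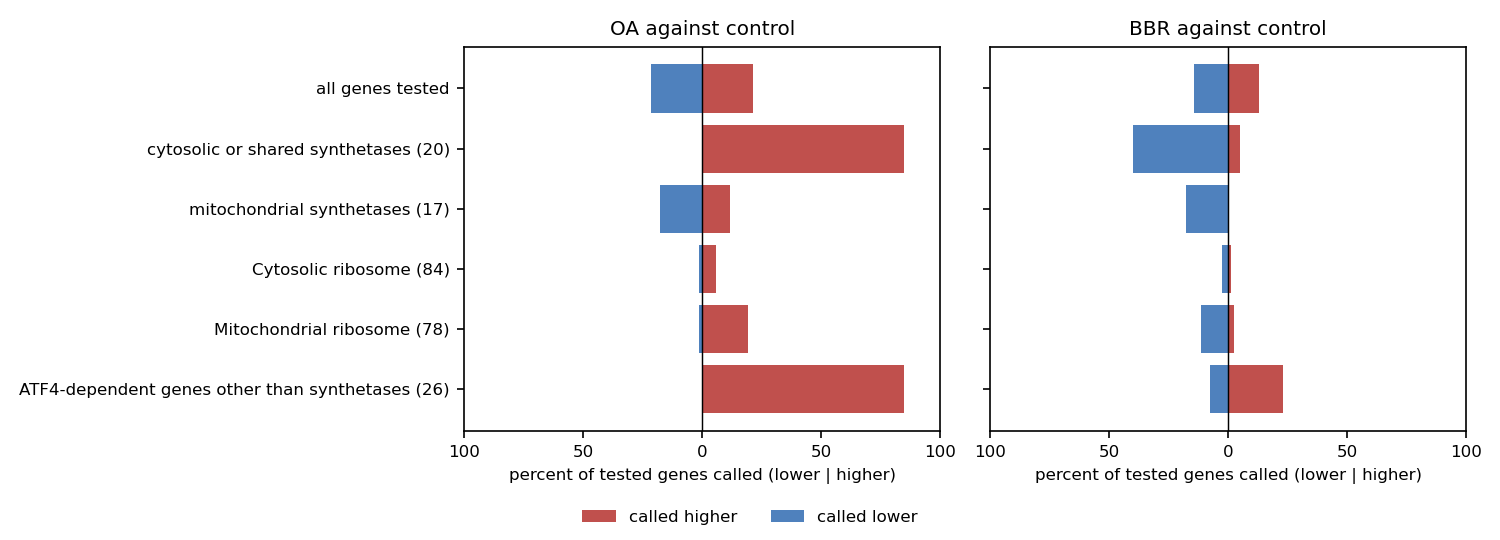
Percent of tested genes called higher (red, right) or lower (blue, left) at adjusted p under 0.05, for 5 gene lists and for all genes, in OA against control and BBR against control; the number tested is in parentheses. With OA, 85% of cytosolic synthetases and 84.6% of the ATF4-dependent list were higher, against 5.95% of cytosolic ribosomal entries and 21.3% of all genes.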

How the data were processed

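Group and replicate number came from the sample titles. Per the labels, poly(A) RNA was fragmented and randomly primed for Illumina sequencing, and mm10 is named. The authors deposited, for each library, estimated counts and FPKM per feature. The aligner, the counting program and its use of strand are not given in the sources used here. Estimated counts (fractional for 2862 features) were rounded. edgeR 4.0.16 (R 4.3.3) was run on each pair of groups (filterByExpr with a minimum count of 10, TMM, quasi-likelihood F test, Benjamini-Hochberg over all genes, called at an adjusted p under 0.05), and on all 12 libraries for the interaction. Standard errors are the log2 fold change divided by the square root of F. CPM were TMM-scaled over 12 libraries. The deposited FPKM served only to compare genes. The fits were tested on simulated data. Replicates of a group differed by more than counting noise (chi-square per degree of freedom 2.77 to 7.61), and the biological coefficient of variation was 4.75% to 5.31%. GENCODE release 21 held 99.71% of the Ensembl identifiers and gave coordinates, and RefSeq gave promoters.

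Members and gene lists were chosen with earlier results of these data known. Named with values in 12 libraries were the 5 cytosolic and 3 mitochondrial genes with the smallest adjusted p in OA against control, up to 4 genes called in BBR against control and in BBR+OA against OA, the 3 with the smallest interaction p, and the gene of each kind with the largest adjusted p. From each list at most 3 genes with the smallest adjusted p were named. Sars, Ears2, Qrsl1, Ddit3, Ubfd1, Nrn1, Lyrm4, C77080, Eif2ak3, Eif2ak4, Spp1, Krt19, Epcam, Sox9, Cd68, Rpsa and Atf4 were picked from their values, outside this rule. The alternatives were RLE and upper quartile scaling, DESeq2 1.42.0, no low-count filter, a replicate block, 1 model of all libraries, an added fold limit of 1.5, and leaving out each library. The values of 1 mitochondrial gene and 1 promoter stretch are not reported here; the gene is included in the counts, medians and sums.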

Additional observations from a re-analysis of the deposited data

Results flagged for a closer look

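The BBR effect differed between cells with and without OA for 4 synthetase genes by the interaction term of edgeR's quasi-likelihood test over 12 libraries. For the cysteine enzyme Cars the effect with OA minus that without was -0.37 (log2, adjusted p = 0.000586). The value was 0.32 for the valine enzyme Vars (adjusted p = 0.00366), 0.27 for the methionine enzyme Mars (adjusted p = 0.0238) and -0.25 for the serine enzyme Sars (adjusted p = 0.0287). The Vars and Cars calls stood with each library left out in turn, and those of Mars and Sars did not.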

How the results depend on the processing

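In 0 cases did a called synthetase turn direction. Under the other scalings, DESeq2, no filter, the block and the model of all libraries, 24 of 1073 gene-level calls changed side, 9 lost and 15 gained; without 1 library 61 of 1332 did, 54 lost and 7 gained. RLE scaling changed none in the pairwise comparisons and the interaction. Upper quartile scaling shifted the median of all genes from -0.006 to -0.052 in OA against control (2077 higher and 3216 lower, against 2643 and 2669) and from -0.0061 to -0.048 in BBR+OA against BBR (1976 and 2870, against 2496 and 2330), with 16 and 15 cytosolic genes higher. With a fold limit of 1.5, the cytosolic genes called were 3 in OA against control, 2 in BBR+OA against BBR and 0 in the other 3 comparisons, and the mitochondrial genes 0, 1 and 0 in the first 3. DESeq2 called 3 mitochondrial genes in OA against control and 1 in BBR against control. In BBR+OA against OA, no filter and the model of all libraries each called 2 cytosolic genes, the added one being Wars. Without 1 library, cytosolic and mitochondrial calls ranged over 16 to 17 and 3 to 5 in OA against control, 15 to 17 and 3 to 4 in BBR+OA against BBR, 7 to 10 and 1 to 2 in BBR against control, 0 to 1 and 0 in BBR+OA against OA, and 2 to 4 and 0 to 1 for the interaction (Vars2 without control 1, Hars2 without control 2, Ears2 without BBR+OA 1). The causes were not tested.

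Same-numbered libraries correlated at 0.053 to 0.18 in their deviations from the group means, above every other number (at most 0.038). The labels name no animal or well and not every pair passed 0.1, so the main tests left the numbers unpaired. That limit does not show that the libraries were independent. With a replicate block 6 of the 20 cytosolic genes were called lower in BBR+OA against OA (1 without it). Over all genes 755 of 12278 were called lower there (323 without the block). In the interaction the block called 1 mitochondrial gene, Ears2 (0 without it), beside 2265 of all 12742 genes (1551 without it). Calls over all genes rose with the block in every comparison. The block also added Dars (adjusted p = 0.0153), Iars2 (0.0294) and, lower, Sars2 (0.0341) in OA against control, and Sars in BBR+OA against BBR (0.0231) and BBR against control (0.0156).

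With 3 libraries a group, the smallest cytosolic log2 fold change called by the main edgeR test was 0.14, for Cars in BBR+OA against BBR. Larger ones could be missed: Wars was not called at -0.22 in BBR+OA against OA (adjusted p = 0.0652). Standard errors were near 0.05 for the abundant cytosolic genes. Those of scarce mitochondrial genes such as Pars2 were 0.144 to 0.195 in the OA comparisons.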
